A study of Mus musculus with 8 samples.

Results

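The cytosolic ribosomal protein genes encode the protein subunits of the ribosome that translates nuclear messages in the cytoplasm. They were taken by gene symbol, with no measured value used: 85 of the 24421 symbols in the count files began with Rps or Rpl followed by a subunit name, as in Rps6, Rpl10a, Rplp0 or Rpsa. Of these, 31 are small subunit genes, 43 are large subunit genes, 3 encode the acidic stalk and 8 are paralogs whose symbol adds an l to that of another member, such as Rpl22l1. Regulatory kinases such as Rps6ka1 and pseudogene rows fall outside the rule.

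RNA was sequenced from MLL-AF9 leukemia cells, driven by a fusion oncogene of human acute leukemia, from the bone marrow of C57BL/6 mice. The KO group (2 libraries) had lost Ikzf2, from Ikzf2Δ/Δ mice, and the WT group (2 libraries) came from Ikzf2f/f mice. Helios, the product of Ikzf2, is an Ikaros family factor that binds DNA through zinc fingers. Cells of both groups were leukemic, were stored frozen and thawed, and were sorted for high c-KIT, the stem cell factor receptor. Neither the driver of the deletion nor the age of the mice is stated in the labels. The labels do not say whether replicates came from separate mice. Sex-linked genes, given below, show that the 2 KO libraries came from different sources, but cannot tell this for WT. P-values measure only the spread among these libraries, part of which may be technical. Chromatin accessibility samples named in the series were not analysed here.

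Each ribosome holds 1 small and 1 large subunit. Cells keep their proteins close to equal supply, since a subunit protein left without a partner is degraded. Many vertebrate ribosomal protein messages start with a terminal pyrimidine tract, which puts their translation under control of the mTOR pathway, and dividing progenitors spend much of their transcription on these genes. When ribosome assembly is disturbed, free Rpl5, Rpl11 and Rpl23 can bind Mdm2, the ligase that degrades p53.

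Gene counts came to 16006081 and 18017545 in KO replicates 1 and 2, against 19286090 and 18711837 in WT replicates 1 and 2. Ikzf2 stood at 10.9 and 26.5 CPM (a gene's counts scaled by library size and TMM factors) in KO and at 283 and 271 CPM in WT. Sex-linked genes set the KO libraries apart from each other. Xist, which silences an X chromosome, had 833 CPM in KO replicate 1 and 0.352 CPM in KO replicate 2, against 0.600 and 0.477 CPM in WT. Transcripts of Ddx3y, a Y-linked gene, were at 0.0619 and 70.1 CPM in KO, against 110 and 102 CPM in WT. KO replicate 1 thus had the pattern of female cells, and KO replicate 2 and both WT libraries had that of male cells. All 8 myeloid progenitor markers, among them Kit, Hoxa9, Meis1 and Myb, were above the level of 3 counts in at least 1 library. Globin genes were at 0, but reads aligning to more than 1 place were counted for no gene, so these zeros cannot show that erythroid cells were absent. Cd8a, Ncr1, Ppbp and Col3a1, which mark T, NK, megakaryocyte and stromal cells, were at or near 0. Other genes of those lists were present and differed between libraries. Nkg7 had 94.2 and 133 CPM in KO and 99.0 and 64.8 CPM in WT, Itga2b had 2.85 and 21.3 CPM in KO and 28.6 and 112 CPM in WT, and Pecam1 had 71.8 and 152 CPM in KO and 236 and 257 CPM in WT. The erythroid list summed to 3.28 and 52.7 CPM in KO and 2.35 and 2.28 CPM in WT, and Car2, which other cells also express, made up 50.4 CPM of the sum in KO replicate 2. A B lymphoid list summed to 35.8 and 25.7 CPM in KO and 24.1 and 17.9 CPM in WT. Cd79b made up 33.8 and 24.0 CPM of it in KO and 22.6 and 16.9 CPM in WT. A mast cell and basophil list summed to 101 and 36.5 CPM in KO and 56.4 and 33.8 CPM in WT. KO replicate 2 had the lowest share of alignments to more than 1 place, 26.0% against 33.1% in KO replicate 1 and 32.1% and 31.7% in WT. Because such reads were counted for no gene, members with near-identical copies elsewhere are uncertain.

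Ribosomal protein genes held a smaller share of gene counts in KO than in WT, and KO replicate 2 accounted for most of that gap. They took 2.37% (95% exact Clopper-Pearson interval 2.36 to 2.38) of gene counts in KO replicate 1 and 1.61% (1.60 to 1.62) in KO replicate 2. In WT they took 2.44% (2.44 to 2.45) in replicate 1 and 2.53% (2.52 to 2.54) in replicate 2. These intervals cover counting error only. The mean share was 1.99 ± 0.537% in KO and 2.49 ± 0.0610% in WT (SD, n = 2 each), and the difference of -0.497 percentage points was smaller than the SD of the KO libraries. Summed over the members, levels were 23464 and 17032 CPM in KO and 23570 and 25112 CPM in WT. KO replicate 1 was close to WT replicate 1 on that sum, while KO replicate 2 lay well under all 3 other libraries. In bulk samples, fewer cells of a type and less RNA per cell cannot be told apart.

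**Figure D1:**
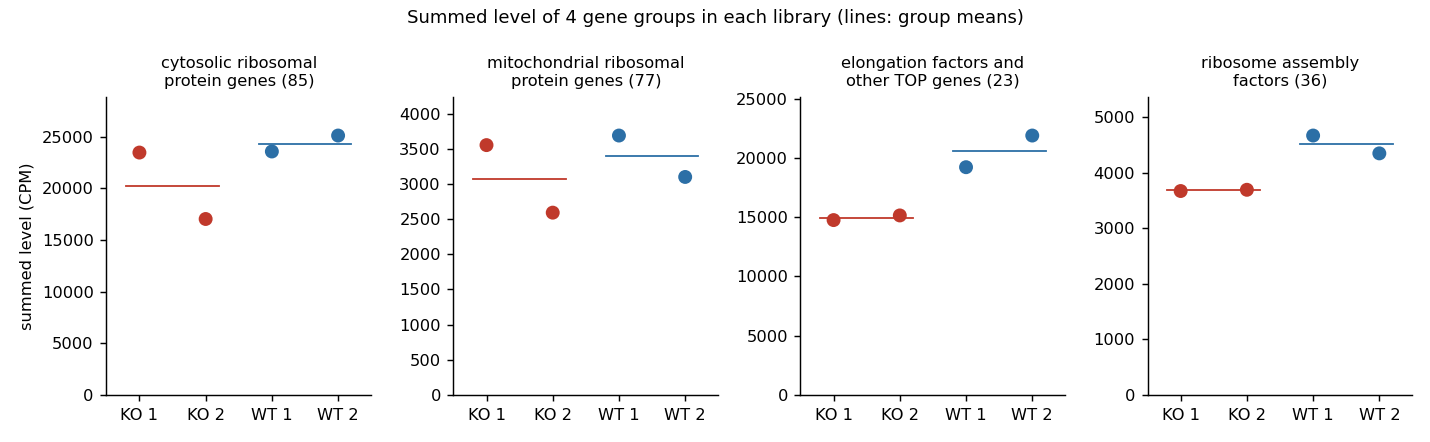
Summed level (TMM CPM) of the 85 cytosolic ribosomal protein genes and of 3 comparison lists in each library, KO left of WT, with a line at each group mean. The cytosolic and mitochondrial ribosomal proteins were lowest in KO replicate 2, whereas the elongation factor list and the assembly factor list lay lower in each KO library than in either WT library.

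No member passed the test between KO and WT. Counts were obtained for 83 members and 81 passed the filter on low counts. edgeR's quasi-likelihood test with Benjamini-Hochberg adjustment over 12623 genes called 0 members, against 0% of all genes, and the lowest adjusted p of a member was 0.664. At an unadjusted p below 0.05 the count was again 0 members, against 968 genes or 7.67% of those tested. DESeq2 also called 0 of the 82 members with an adjusted p, against 2.62% of all genes, and had 2 members at an unadjusted p below 0.05, Rpl13a and Rpl39l. Left out of the edgeR fit were 4 members. Rpl10l and Rpl26 had no count in any library, and Rps4l had 3 counts in WT replicate 1 and none elsewhere. The other was Rpl39l. Reads aligning to more than 1 place were counted for no gene, so the zeros of Rpl26, a large subunit gene, cannot show that it was silent.

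The fold changes nevertheless leaned one way. Of 81 members, 71 had a log2 fold change of KO over WT below 0, which is 87.7% against 50.5% of all tested genes. The median was -0.19 for the members and -0.004 for all genes, a median level 1.14-fold higher in WT. Single members ranged from -0.81 for Rpl3l to 0.56 for Rps13. Both KO libraries lay below both WT libraries for 25 members (30.9%), against 19.1% of all genes. These were 9 small subunit genes (Rps7, Rps9, Rps14, Rps16, Rps19, Rps20, Rps23, Rps25 and Rpsa), 12 large subunit genes (among them Rpl3, Rpl4, Rpl8, Rpl12, Rpl13a, Rpl18, Rpl27 and Rpl41), the stalk genes Rplp0 and Rplp1, and the paralogs Rpl3l and Rpl36al. The reverse held for 1 member, Rpl9 (1.23%), against 18.1% of all genes.

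KO replicate 2 was the lowest of the 4 libraries for 65 of 81 members, or 80.2%, against 26.3% of all genes. The corresponding counts were 11 for KO replicate 1, 4 for WT replicate 1 and 1 for WT replicate 2. Relative to both WT libraries, 70 members were lower in KO replicate 2 and 31 were lower in KO replicate 1. The median log2 difference between KO replicates 2 and 1 was -0.49, a ratio of 0.710, whereas that between WT replicates 2 and 1 was 0.02. Within replicate number 1 the KO minus WT median was 0.004, and within replicate number 2 it was -0.49. Without KO replicate 2 the members' median fold change was -0.002 and 42 of 82 members lay below 0. Without KO replicate 1 it was -0.50 and 72 of 81 were below 0. The lower level of the members was thus as large between the KO libraries as between the groups of replicate number 2.

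**Figure D2:**
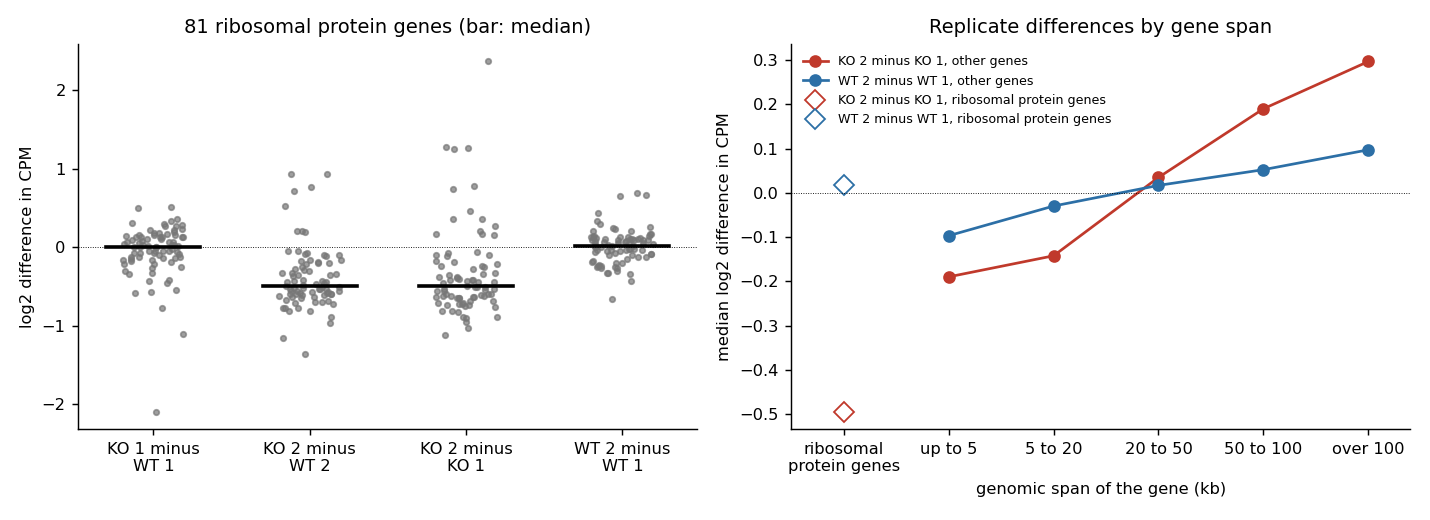
Left, log2 difference in TMM CPM of the 81 tested members for 4 pairs of libraries, each point 1 gene. Right, median log2 difference between replicates 2 and 1 of each group for other genes binned by gene span in kb, with the members as diamonds at their own position; the KO replicates differ at -0.49 and the WT replicates at 0.02.

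Other measures differed between the KO libraries too. Among other genes, the KO replicate 2 minus replicate 1 median was -0.19 for spans up to 5 kb and 0.30 for spans over 100 kb, while the WT replicates ran from -0.10 to 0.10 over the same bins. The members span 0.982 to 11.8 kb and 67 of 81 span at most 5 kb, so their -0.49 lay below that of other short genes. Summed levels of 8 immediate early genes were 1493 and 9766 CPM in KO and 1044 and 3599 CPM in WT. The 10 neutrophil genes summed to 12916 and 18414 CPM in KO and 851 and 3952 CPM in WT, all 10 detected, and 8 progenitor markers summed to 9684 and 7360 CPM in KO and 3113 and 3283 CPM in WT. Mpo, a granule enzyme, made up 7073 and 4311 CPM of that sum in KO and 286 and 343 CPM in WT, and the other 7 summed to 2610 and 3049 CPM in KO and 2827 and 2940 CPM in WT. The part of these factors, and of the sex-linked difference, in the ribosomal protein levels was not tested.

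Of 31 small subunit genes 29 had a fold change below 0, against 50.5% of all genes, with a median of -0.19. Against the WT mean the median was 0.02 in KO replicate 1 and -0.50 in KO replicate 2. Their summed level was 11113 and 7718 CPM in KO and 10807 and 11345 CPM in WT. Rps19, whose human counterpart is the gene most often mutated in Diamond-Blackfan anemia, had 205 and 141 CPM in KO and 229 and 242 CPM in WT. Both KO values lay under both WT values, with a log2 fold change of -0.44 ± 0.26 (SE) and an edgeR adjusted p of 0.793. Rps16, a protein of the small subunit, had 55.0 and 52.8 CPM in KO and 80.2 and 66.7 CPM in WT (-0.45 ± 0.21, edgeR adjusted p = 0.723). It differed little between the KO replicates, unlike most members, and its fold change was -0.42 without KO replicate 2, whereas that of Rps19 was -0.20.

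Rps14, whose loss in humans contributes to a deletion form of myelodysplastic syndrome, had 570 and 426 CPM in KO and 578 and 685 CPM in WT. The KO values lay below both WT values, KO replicate 1 only narrowly, and the fold change was -0.34 ± 0.25. Rpsa, a small subunit protein also known as a laminin receptor, had 243 and 206 CPM in KO and 267 and 292 CPM in WT (-0.31 ± 0.21). Rps3, which sits where mRNA enters the ribosome, had 1734 and 1281 CPM in KO and 1720 and 1932 CPM in WT. Its KO replicate 1 value lay between the WT values, and its fold change of -0.28 ± 0.26 was -0.08 without KO replicate 2. Rps6, the subunit protein phosphorylated downstream of mTOR, had 39.8 and 24.8 CPM in KO and 32.4 and 35.7 CPM in WT, with KO replicate 1 the highest of the 4 (-0.08 ± 0.30). Rps18 had 217 and 100 CPM in KO and 169 and 176 CPM in WT, so the KO libraries enclosed the WT ones. Rps27a, a ubiquitin fusion, was nearly level at 30.0 and 27.7 CPM in KO and 29.4 and 28.6 CPM in WT.

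Large subunit genes gave the same median, -0.19, with 36 of 42 tested below 0. Against the WT mean their median was -0.004 in KO replicate 1 and -0.48 in KO replicate 2. Their sum was 9732 and 7362 CPM in KO and 9931 and 10970 CPM in WT. Rpl13a, which in human monocytes also takes part in translational silencing, had 520 and 581 CPM in KO and 701 and 1133 CPM in WT. It had the smallest unadjusted p of all tested members, with a log2 fold change of -0.74 ± 0.30 and an edgeR adjusted p of 0.664, and it ranged from -1.04 to -0.34 when single libraries were left out. The gap between its WT replicates, 0.69 on the log2 scale, was almost as large as the group difference. Rpl18 had 188 and 143 CPM in KO and 218 and 232 CPM in WT (-0.44 ± 0.23). Rpl4 and Rpl8 were, with Rps3, the members of highest mean CPM, a value not corrected for transcript length. Rpl4 had 2666 and 2095 CPM in KO and 2761 and 3024 CPM in WT (-0.28 ± 0.25), and Rpl8 had 1634 and 1227 CPM in KO and 1795 and 1917 CPM in WT (-0.38 ± 0.25). Both KO libraries were below both WT libraries for Rpl13a, Rpl18, Rpl4 and Rpl8. Rpl3, which lies close to the catalytic centre, had 153 and 171 CPM in KO and 192 and 195 CPM in WT (-0.26 ± 0.20), with KO replicate 1 the lower of the KO pair.

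The large subunit genes that can bind Mdm2 overlapped between the groups. Rpl5 had 49.4 and 31.6 CPM in KO and 44.6 and 51.4 CPM in WT (-0.25 ± 0.29). For Rpl11 the levels were 26.0 and 18.5 CPM in KO and 29.3 and 23.3 CPM in WT (-0.24 ± 0.31). Rpl23 stood at 90.1 and 48.4 CPM in KO and 77.1 and 82.8 CPM in WT (-0.21 ± 0.33). In all 3, KO replicate 2 was the lowest library, and for Rpl5 and Rpl23 the sign turned without it. A list of p53 target genes, which also holds Trp53, the gene of p53 itself, had 17 tested genes. Of these 9 were above and 8 below 0, with a median of 0.02, and neither edgeR nor DESeq2 called any. In edgeR 2 of the 17 had an unadjusted p below 0.05, against 7.67% of all genes. Rpl38, needed for translation of certain Hox messages in mouse embryos, had 28.0 and 15.7 CPM in KO and 25.5 and 25.0 CPM in WT (-0.21 ± 0.35). Rpl41, which encodes a very short basic peptide, had 117 and 161 CPM in KO and 174 and 170 CPM in WT (-0.31 ± 0.24), and here KO replicate 1 was the lowest.

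The stalk, which recruits elongation factors to the ribosome, had the lowest median of the classes, -0.38 over its 3 genes. Its summed level was 2027 and 1643 CPM in KO and 2439 and 2426 CPM in WT, so both KO libraries were below both WT libraries. Rplp0, the stalk's base, had 1404 and 1175 CPM in KO and 1625 and 1731 CPM in WT (-0.38 ± 0.23, edgeR adjusted p = 0.807). Rplp1 had 550 and 411 CPM in KO and 731 and 622 CPM in WT (-0.49 ± 0.25, edgeR adjusted p = 0.763). Rplp2, its dimer partner, had 74.1 and 57.1 CPM in KO and 81.9 and 72.8 CPM in WT, with KO replicate 1 between the WT values (-0.24 ± 0.22, -0.06 without KO replicate 2).

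A few members were higher in KO, and again the replicates differed. Rps13 had 11.1 and 26.6 CPM in KO and 11.6 and 13.9 CPM in WT, a fold change of 0.56 ± 0.49 that was -0.20 without KO replicate 2. Rpl10, which joins the large subunit late and is mutated in some human T cell leukemias, had 64.1 and 110 CPM in KO and 67.7 and 66.6 CPM in WT (0.37 ± 0.30, -0.07 without KO replicate 2). In both genes a single KO library was high and the other was at or below WT. Rpl9 was the single tested member above both WT libraries in each KO library, at 27.7 and 35.4 CPM in KO and 24.4 and 24.6 CPM in WT (0.37 ± 0.26, edgeR adjusted p = 0.853). Rpl10a, a surface protein of the large subunit, had 86.4 and 63.8 CPM in KO and 71.2 and 69.2 CPM in WT, which overlapped.

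**Figure D3:**
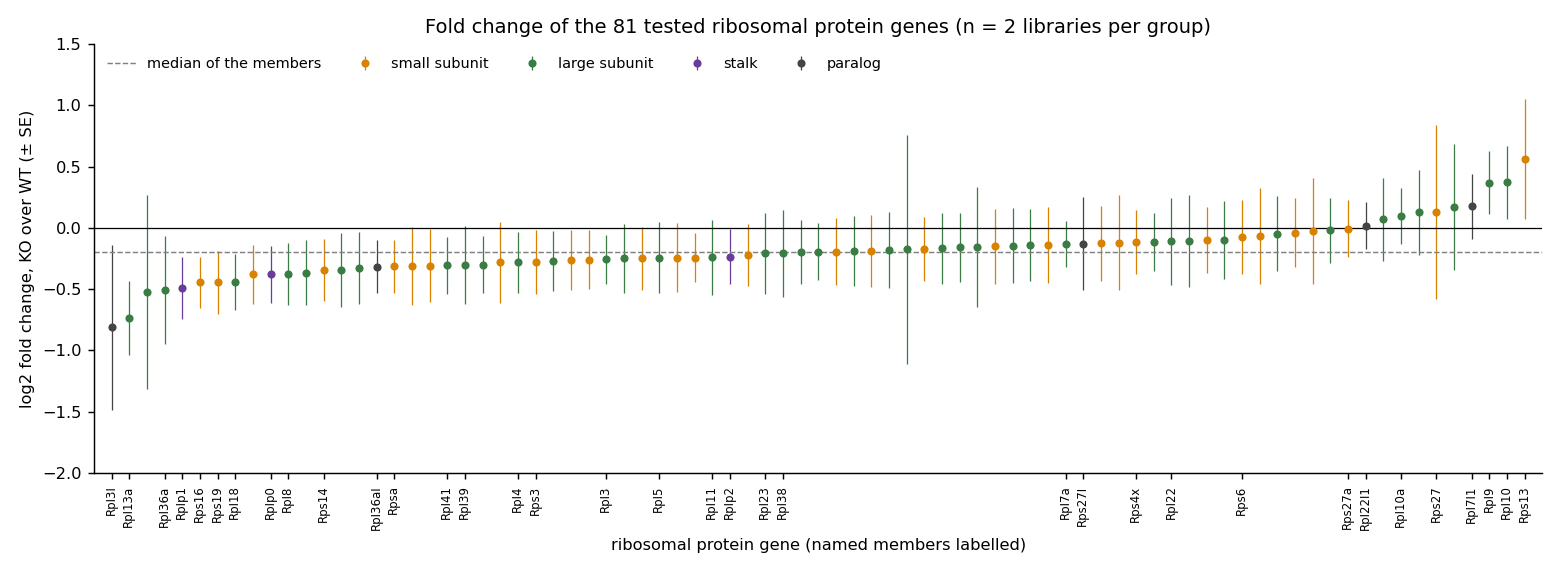
Log2 fold change of KO over WT with its SE for the 81 tested members, ordered by value, coloured by class and labelled where named by the rule, the dashed line at the members' median of -0.19. Of the 81 points, 71 lie below 0, and Rpl3l (-0.81) and Rps13 (0.56) are the extremes.

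The members' proportions to each other differed little between the groups. With each of 74 members expressed against the median member of its library, the KO minus WT difference had an SD of 0.19 over genes, and 71 of 74 lay within 0.5. Rps13 (0.73), Rpl9 (0.65) and Rpl10 (0.61) were highest on that scale and Rpl13a (-0.41) was lowest. The log2 difference between KO replicates 2 and 1 had an SD of 0.41 over members of at least 10 CPM, against 0.19 between the WT replicates. Among members of at least 10 CPM with a count in every library, Rps13, Rps27l and Rpl36a varied most between replicates and Rpl7a, Rps27a and Rpl3 varied least. Rpl39l, with 153 and 0.0587 CPM in KO, was not ranked because a WT value was 0. Rpl7a had 151 and 141 CPM in KO and 162 and 159 CPM in WT (-0.13 ± 0.19). At 10 CPM or more, 9 members went against the trend and were higher in KO replicate 2 than in KO replicate 1: Rpl13a, Rpl3, Rpl17, Rps23, Rpl9, Rpl27, Rpl41, Rpl10 and Rps13.

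**Figure D4:**
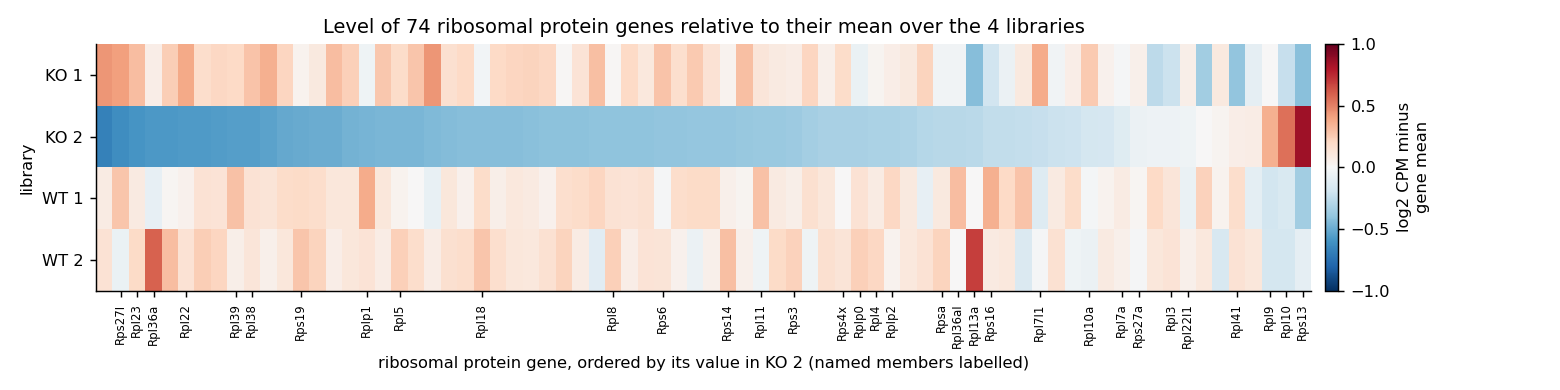
Log2 CPM of 74 members, each minus its own mean over the 4 libraries, with KO replicates 1 and 2 above WT replicates 1 and 2 genes ordered by KO replicate 2 and labels on the members named by the rule. KO replicate 2 is below the gene mean for most members and KO replicate 1 resembles the WT libraries.

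Among the 4 X-linked members, 3 were below 0 and the median was -0.21, with sums of 881 and 679 CPM in KO and 798 and 857 CPM in WT. Rps4x had 759 and 535 CPM in KO and 671 and 733 CPM in WT (-0.12 ± 0.26). Rpl39, a small protein of the exit tunnel, had 45.7 and 27.2 CPM in KO and 48.6 and 41.3 CPM in WT (-0.30 ± 0.32), and Rpl36a had 11.4 and 7.28 CPM in KO and 10.3 and 16.3 CPM in WT (-0.51 ± 0.44). KO replicate 1, the library with Xist, lay between the WT libraries for Rpl39 and Rpl36a, above both for Rps4x and below both for Rpl10.

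Paralogs can replace their partners in the ribosome in certain tissues. Rpl22, which is required for T cell development in mice, had 472 and 245 CPM in KO and 374 and 400 CPM in WT. Its paralog Rpl22l1 had 71.3 and 66.5 CPM in KO and 65.4 and 70.9 CPM in WT, so the count ratio of Rpl22l1 to Rpl22 was 0.151 and 0.272 in KO and 0.175 and 0.177 in WT. The WT ratios lay between the KO ratios. Rps27l, which p53 induces, had 90.3 and 44.2 CPM in KO and 82.4 and 64.9 CPM in WT (-0.13 ± 0.38), and its partner Rps27 had 1.11 and 2.70 CPM in KO and 1.90 and 1.59 CPM in WT. Rpl36al had 86.8 and 73.6 CPM in KO and 110 and 89.4 CPM in WT (-0.32 ± 0.21). Rpl3l, a muscle paralog of Rpl3, had only 19 and 13 counts in KO and 29 and 37 counts in WT, which gave the lowest fold change, -0.81, with an SE of 0.67. Rpl10l, a testis paralog of Rpl10, had no count in any library.

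Of the 7 pairs with counts in both genes, only the ratio of Rpl7l1 to Rpl7 separated the groups. Rpl7l1 itself had 189 and 124 CPM in KO and 133 and 144 CPM in WT (0.17 ± 0.27, edgeR adjusted p = 0.950), and its groups overlapped. Rpl7, a large subunit gene whose product Rpl7l1 resembles, had 837 and 541 CPM in KO and 751 and 823 CPM in WT. Per count of Rpl7, Rpl7l1 stood at 0.226 and 0.230 in KO and at 0.177 and 0.176 in WT. On the log2 scale the means were -2.13 ± 0.018 in KO and -2.50 ± 0.009 in WT (SD, n = 2 each), a difference of 0.37. The exact two-sided permutation test gave p = 0.333, the smallest that 2 against 2 libraries allow. Any ratio that separates the groups reaches this value. It was 1 after Benjamini-Hochberg adjustment over the 7 pairs with counts in both genes. The ratio was alike in both KO libraries although each gene's own level was lower in KO replicate 2.

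Rpl39l, a paralog of Rpl39 best known from testis, was present in 1 library. It had 2474 and 1 counts in KO and 4 and 0 counts in WT, or 153 and 0.0587 CPM in KO and 0.200 and 0 CPM in WT. No other gene of the 24421 had at least 10 CPM in KO replicate 1 and at most 0.5 CPM in each other library, with limits set after its values were seen. The corresponding numbers were 0 genes for KO replicate 2, 7 for WT replicate 1 and 1 for WT replicate 2. edgeR's filter removed it, and DESeq2 gave a log2 fold change of 9.58 ± 3.79 with an adjusted p of 0.225, which rests on KO replicate 1. The gene lies at chr16:10170197-10174911 (GRCm38.p6). Of its neighbours, Atf7ip2, 17.7 kb away, had 117 and 0 counts in KO and 3 and 13 counts in WT, and so was also highest in KO replicate 1. Ciita, 305 kb away, had 10 and 2.76 CPM in KO and 0.300 and 0.106 CPM in WT. Nubp1, another gene of the region, had 72.4 and 58.1 CPM in KO and 85.2 and 70.3 CPM in WT, so KO replicate 1 was not high throughout. Shown for comparison are the 150 bases before and 20 after the first listed start of Rpl39l and Rpl39, RefSeq on GRCm38.p6, 5′ to 3′ on the gene's strand, with the ETS core CCGGAAG, a motif common at housekeeping starts, in capitals. Rpl39l (chr16:10170078-10170247, + strand) held the core at 2 places in this stretch and Rpl39 (chrX:37085203-37085372, - strand) at none, although the longer promoter window of Rpl39 described next also holds it.
Rpl39l: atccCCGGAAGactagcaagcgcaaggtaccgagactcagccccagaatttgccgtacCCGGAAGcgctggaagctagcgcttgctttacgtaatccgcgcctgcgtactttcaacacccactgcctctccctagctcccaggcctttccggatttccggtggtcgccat
Rpl39: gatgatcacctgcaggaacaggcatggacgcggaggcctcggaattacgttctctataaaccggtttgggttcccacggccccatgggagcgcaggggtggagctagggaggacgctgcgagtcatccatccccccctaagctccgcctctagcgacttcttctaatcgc

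**Figure D5:**
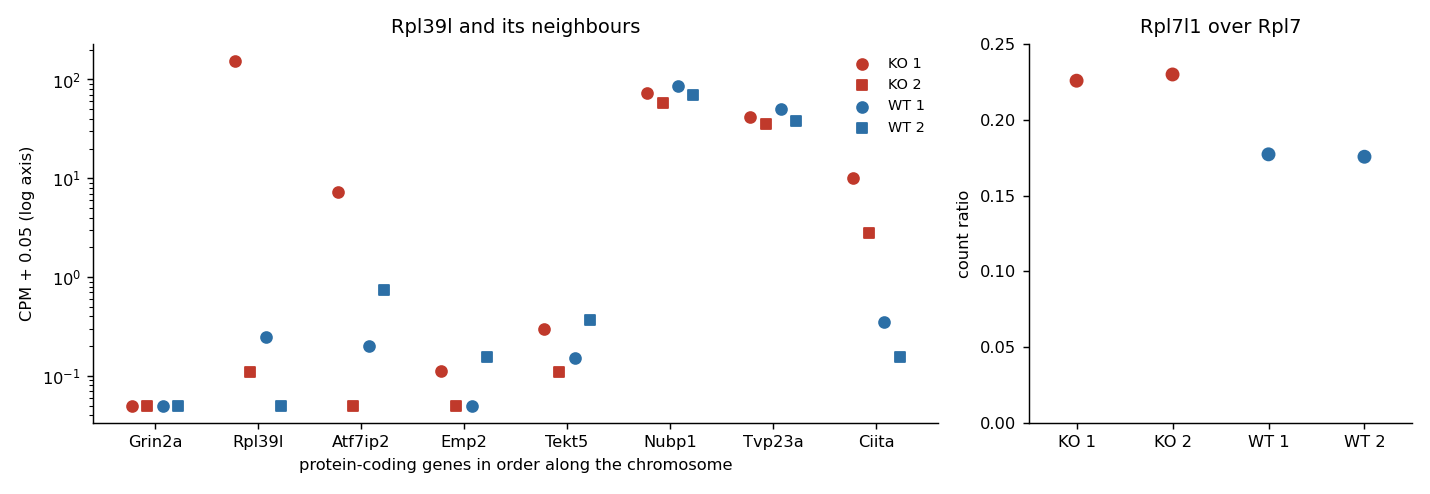
Left, TMM CPM plus 0.05 on a log axis of Rpl39l and its chromosomal neighbours in each library, KO left of WT. Right, count ratio of Rpl7l1 to Rpl7 in each library; Rpl39l is high only in KO replicate 1, and the KO ratios of 0.226 and 0.230 lie above the WT ratios of 0.177 and 0.176.

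Promoters of the members were set beside those of other genes. Members were also split by motif on their fold change of KO over WT, not on the difference between the KO replicates. RefSeq promoter windows (250 bases before to 50 after the first listed start, GRCm38.p6) matched 64 of the 85 members by symbol. A run of at least 8 pyrimidines (C or T, gene strand) within the 20 bases before to 20 after the start was found in 28 of 64 members (43.8%), 15.6% of tested genes and 15.9% of all promoters. Bases of a run outside that window were not counted. A run could also lie wholly before the start, as in Rpl4, and so outside the annotated message. Both strands were searched for the other motifs. The ETS core CCGGAAG was in 39.1% of members, 18.7% of tested genes and 9.12% of all promoters, and the YY1 core AAGATGG in 14.1%, 7.49% and 6.48%. TATAAA was in 9.38% of members, 6.94% of tested genes and 14.2% of all promoters. The letters TGGGAA, a core bound by Ikaros family factors, were in 25% of members, 23.1% of tested genes and 25.5% of all promoters. The median fold change was -0.16 with and -0.21 without the pyrimidine run, -0.20 with and -0.18 without the ETS core, and -0.20 with and -0.18 without TGGGAA.

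Stretches from 40 bases before to 20 after the start show members with a pyrimidine run, in capitals, and members without one. Rpl13a (chr7:45128726-45128785, - strand), Rpl18 (chr7:45718031-45718090, + strand), Rpl4 (chr9:64173347-64173406, + strand) and Rps18 (chr17:33955646-33955705, - strand) held a run of 10 to 14 bases. Rps16 (chr7:28350649-28350708, + strand), Rps19 (chr7:24884552-24884611, + strand), Rpl10 (chrX:74270776-74270835, + strand) and Rps13 (chr7:116334171-116334230, - strand) held none of that length. Members lower in both KO libraries occur on either side, as Rpl13a and Rpl18 have the run and Rps16 and Rps19 do not.
Rpl13a: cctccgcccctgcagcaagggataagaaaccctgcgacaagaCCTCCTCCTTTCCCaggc
Rpl18: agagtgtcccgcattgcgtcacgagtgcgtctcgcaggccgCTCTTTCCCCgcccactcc
Rpl4: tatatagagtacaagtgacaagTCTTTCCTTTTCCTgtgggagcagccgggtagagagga
Rps18: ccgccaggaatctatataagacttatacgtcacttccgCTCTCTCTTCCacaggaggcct
Rps16: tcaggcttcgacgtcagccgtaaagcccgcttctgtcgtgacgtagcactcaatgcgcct
Rps19: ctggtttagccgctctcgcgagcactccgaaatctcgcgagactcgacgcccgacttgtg
Rpl10: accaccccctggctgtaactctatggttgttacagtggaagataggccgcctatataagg
Rps13: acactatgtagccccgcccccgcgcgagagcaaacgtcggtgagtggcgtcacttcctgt

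Ribosomal proteins under other names lay on the same side as most members. Gnb2l1, the scaffold protein also called Rack1, had 2198 and 1560 CPM in KO and 2278 and 2547 CPM in WT (-0.36 ± 0.27). Fau, a fusion with a ubiquitin-like protein, had 14.3 and 24.2 CPM in KO and 24.4 and 26.0 CPM in WT (-0.39 ± 0.35). The KO values of both genes lay under both WT values.

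Genes of the wider translation machinery are given for comparison, and neither edgeR nor DESeq2 called a gene in any of these lists. At an unadjusted p below 0.05 edgeR had 4 of 36 assembly factors, 1 of 23 elongation factor list genes, 1 of 77 mitochondrial ribosomal protein genes and 1 of 14 nutrient signalling genes, against 7.67% of all genes. Of 77 mitochondrial ribosomal protein genes, which serve the organelle's own ribosome, 49 were below 0, with a median of -0.09. KO replicate 2 was the lowest library for 63 of the 77 (81.8%), against 80.2% of the cytosolic members, and the KO replicates differed by a median of -0.48. The WT replicates also differed, by a median of -0.19 with 64 of the 77 lower in WT replicate 2, against 0.02 and 35 of 81 for the cytosolic members. The next list holds elongation factors and other genes with a pyrimidine tract. Of 23 such genes 22 were below 0 (50.5% of all genes), 13 had both KO libraries below both WT libraries (19.1% of all genes), and the medians against the WT mean were -0.26 in KO replicate 1 and -0.36 in KO replicate 2. Eef1a1, which delivers aminoacyl-tRNA, had 5626 and 5184 CPM in KO and 6830 and 8366 CPM in WT (-0.49 ± 0.25). Eef1g, a subunit of its exchange factor, had 61.2 and 73.7 CPM in KO and 116 and 117 CPM in WT (-0.79 ± 0.20, edgeR adjusted p = 0.444).

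Ribosome assembly factors had medians against the WT mean of -0.29 in KO replicate 1 and -0.34 in KO replicate 2. Of 36 tested, 32 were below 0, against 50.5% of all genes, and 24 had both KO libraries below both WT libraries, against 19.1%. Nop2, a methyltransferase of ribosomal RNA, had 78.5 and 88.1 CPM in KO and 117 and 116 CPM in WT (-0.48 ± 0.19). Wdr12, which matures the large subunit, had 60.6 and 51.3 CPM in KO and 134 and 80.0 CPM in WT (-0.93 ± 0.30). Bysl, a small subunit assembly factor, went the other way at 210 and 144 CPM in KO and 117 and 104 CPM in WT (0.68 ± 0.26). Among 26 initiation factors 15 were below and 11 above 0 (median -0.06), among 14 RNA polymerase I genes 9 were below (median -0.12), and 14 genes of nutrient and mTOR signalling divided evenly (median 0.02). Whether these lists differ from the ribosomal protein genes was not tested.

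Pseudogene rows bear on how fully some members were counted. Rpl14-ps1 had 10169 and 7863 counts in KO and 13846 and 14423 counts in WT, beside 4687 and 2961 counts in KO and 5668 and 5743 counts in WT for Rpl14 itself. Rpl37rt, a retrotransposed copy, had 5365 and 3145 counts in KO and 5954 and 5826 counts in WT, beside 468 and 317 counts in KO and 537 and 509 counts in WT for Rpl37. In each of these pairs KO replicate 2 was the lowest library for both the gene and its copy. The levels of Rpl14 and Rpl37 are therefore uncertain. So are those of the 10 members with a mean under 10 CPM, among them Rps27, Rps29, Rpl23a, Rpl24, Rpl26, Rpl30 and Rpl34.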

How the data were processed

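RNA-seq of 4 libraries (2 KO, 2 WT) was used. The authors deposited 1 file of unnormalised read counts by gene symbol for each library. The submitters' processing notes name MACS2, Picard, HTSeq, STAR 2.3.0 and Bowtie2 2.2.5, and build mm10. Annotation and strand setting are not given in the sources, so reads of overlapping or antisense genes cannot be separated. The files' 5 no-gene rows, 72.4% and 69.3% of all counts in KO and 72.2% and 71.7% in WT, entered neither library sizes nor tests.

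Groups came from sample titles. In R 4.3.3, filterByExpr of edgeR 4.0.16 kept 12623 genes, counts were scaled with TMM factors, and the KO over WT contrast was tested with edgeR's quasi-likelihood F-test (robust, no covariate) with Benjamini-Hochberg adjustment at 0.05. The SE is the fold change's size over the square root of F. DESeq2 1.42.0 and voom in limma 3.58.1 were alternatives. A count of 3 equals 0.186 and 0.176 CPM in KO and 0.150 and 0.159 CPM in WT. Replicates differed beyond counting noise (chi-square per degree of freedom 109 in KO and 80.5 in WT). Promoters and coordinates come from RefSeq, GRCm38.p6, the assembly named mm10. Transcript lengths were not used here, so levels are compared between libraries, not between genes.

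Members and lists were chosen with earlier results of these data known. Named members are 26 fixed by role, the 5 per direction of smallest unadjusted p, the 3 of highest mean CPM, and the 3 of largest and 3 of smallest spread within groups at 10 CPM or more. Rps18, Rpl7, Rpl14, Rpl37 and the genes named from the comparison lists were chosen after their values were seen. Some genes are not reported here.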

Additional observations from a re-analysis of the deposited data

How the results depend on the processing

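The labels number replicates 1 and 2 in each group but do not say that numbers pair samples. Deviations of same-numbered libraries correlated at 0.19 over genes, with only 2 numbers. Of the principal components, axes of joint variation over genes, the first held 46.9% of the variance and set KO apart from WT. It placed KO at -60.4 and -24.6 and WT at 58.4 and 26.5. Libraries of the same number nevertheless lay together on the second component, which held 33.9% of the variance. Replicates 1 were at 37.3 in KO and 40.4 in WT, and replicates 2 at -38.2 in KO and -39.5 in WT. Whether replicate number marks a shared batch was not tested. With the replicate block, 11 genes and 0 members were called by edgeR and the members' median was -0.23. Over all genes edgeR called 0, against 4 with no filter, 352 by DESeq2, 0 by voom (935 at an unadjusted p below 0.05) and 0 to 156 with single libraries left out. The members' median was -0.18 to -0.25 under the other scalings and tools, -0.50 to -0.0023 in edgeR with single libraries left out (0.0014 in DESeq2 without KO replicate 2) and -0.49 for replicate number 2 alone. Members with both KO libraries above both WT libraries numbered 2 with RLE factors, with TMM factors computed without the members, with no filter and under DESeq2. With single libraries left out, 3 to 33 members lay above and 31 to 70 below. Such counts set 1 library against 2, where groups separate more readily. Their share over all genes was not computed, so they say nothing particular to the members. With a single library left out, 1 library stands for its group and is assumed to vary like the other group. Calls of members from those DESeq2 fits are therefore not read as results. For Rpl39l without KO replicate 2, the KO group is KO replicate 1 alone. The share difference ran from -0.876 to -0.117 percentage points with single libraries left out and from -0.520 to -0.501 with other denominators.

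Of 385 recomputed fold changes of 35 named members, 362 kept their direction, 23 in 15 genes turned and none was called; the cause was not tested. With single libraries left out the ranges were -0.60 to 0.040 for Rpl5, -0.72 to 0.17 for Rpl23, -0.66 to 0.29 for Rpl22, -0.039 to 0.089 for Rpl22l1, -0.067 to 0.71 for Rpl10, -0.65 to 0.63 for Rps27, -0.73 to 0.29 for Rps27l, -0.064 to 0.048 for Rps27a, -0.39 to 0.11 for Rps4x, -0.72 to 0.024 for Rpl39, -0.45 to 0.22 for Rps6, -0.68 to 0.15 for Rpl38, -0.20 to 1.06 for Rps13, -0.16 to 0.44 for Rpl7l1 and -0.14 to 0.30 for Rpl10a. Rpl22l1 was at -0.045 with library sizes alone, and Rps27a at 0.0048 with RLE factors, 0.0032 with no filter and 0.0029 by DESeq2. The SD of the members' balance was 0.20 to 0.32 with single libraries left out, and another centre cannot move it. Depth limits Rpl3l, Rps27 and Rps4l, with few counts.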
